A study of Homo sapiens with 20 samples.

Results

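The genes described are the 8 that encode the subunits of the initiation factors eIF2 and eIF2B, out of 19029 gene IDs counted in the series. They were chosen by name, as the 3 genes of eIF2 (EIF2S1, EIF2S2 and EIF2S3) and the 5 genes of eIF2B (EIF2B1 to EIF2B5), and all 8 were found in each of the 4 count tables. The cells were HEK 293T, a transformed human embryonic kidney line, labelled wild type in every group. They were treated for 1 h with 5 µM i14G1-12, a compound that the title of the series presents as an inhibitor of the pair eIF1-eIF4G1, or with its solvent DMSO. After crosslinking with 0.15% formaldehyde and RNase digestion, small ribosomal subunit complexes were immunoprecipitated through HA-eIF2a, HA-tagged eIF1, eIF4G1 or eIF3, and the protected mRNA pieces were sequenced. The groups were eIF2a i14G1-12 and eIF2a DMSO (n = 2 each), eIF1 i14G1-12 and eIF1 DMSO (n = 3 each), eIF4G1 i14G1-12 and eIF4G1 DMSO (n = 3 each), and eIF3 i14G1-12 and eIF3 DMSO (n = 2 each), 20 libraries in all. How the tagged factors were introduced is not stated in the labels, nor is it stated that replicates were grown as separate cultures. All p-values here therefore measure the spread between libraries, which may be technical. The tagged eIF2a was taken to be the alpha subunit of eIF2, the product of EIF2S1, as its name is usually read.

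eIF2 is the GTP-binding factor that brings the initiator methionyl-tRNA to the small ribosomal subunit. Its gamma subunit (EIF2S3) binds GTP and the tRNA, its beta subunit (EIF2S2) contacts eIF5 and eIF2B, and its alpha subunit (EIF2S1) carries the serine that stress kinases phosphorylate. eIF2B is the exchange factor that reloads eIF2 with GTP: its epsilon subunit (EIF2B5) holds the catalytic domain and pairs with gamma (EIF2B3), while alpha (EIF2B1), beta (EIF2B2) and delta (EIF2B4) form the regulatory core that senses phosphorylated eIF2. Phosphorylated eIF2 blocks eIF2B, which is the switch of the integrated stress response.

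In the RefSeq annotation of GRCh38.p14, EIF2S1 (ENSG00000134001) lies at chr14:67360328-67386516, EIF2S2 (ENSG00000125977) at chr20:34088309-34112243 and EIF2S3 (ENSG00000130741) at chrX:24054956-24078810. EIF2B1 (ENSG00000111361) lies at chr12:123620406-123633686 and EIF2B2 (ENSG00000119718) at chr14:75002921-75012366. EIF2B3 (ENSG00000070785) lies at chr1:44850522-44986595, EIF2B4 (ENSG00000115211) at chr2:27364352-27370338 and EIF2B5 (ENSG00000145191) at chr3:184135358-184145311. The sequence counted per gene ran from 1644 nt for EIF2B4 to 4304 nt for EIF2B2. EIF2S3 has a close copy, EIF2S3B, and the sources used here do not give how reads that fit both were treated, so its counts are uncertain.

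Library totals ran from 10033 counts (eIF2a DMSO 2) to 1161512 (eIF1 DMSO a), and the 8 genes together held 0.0626% to 0.319% of them. Levels are in CPM, read counts scaled to library size with TMM factors over all 20 libraries, and each is a share of the footprints recovered, so more mRNA and more initiation complexes per mRNA cannot be told apart. Only 118 genes had 10 or more counts in eIF2a DMSO 2, where 1 count stood for 52.0 CPM and a count of 0 allows up to 156 CPM. The next shallowest library, eIF3 DMSO 2, held 59179 counts, and a count of 0 there allows up to 40.5 CPM.

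EIF2S1, the gene of the factor taken to be tagged in the HA-eIF2a cells, was the member that set these libraries apart. It stood at 357 and 535 CPM in eIF2a i14G1-12 and at 497 and 1145 CPM in eIF2a DMSO. In eIF1 libraries it stood at 201, 139.8 and 155 CPM in i14G1-12 and at 187, 175 and 155 CPM in DMSO. In eIF4G1 libraries it was at 132, 70.4 and 91.2 CPM in i14G1-12 and at 165, 114 and 124 CPM in DMSO. All 4 eIF2a libraries therefore lay above all 12 libraries of eIF1 and eIF4G1. In eIF3 libraries EIF2S1 was at 868 and 195 CPM in i14G1-12 and at 151 and 311 CPM in DMSO, so 1 of these 4 was above 3 of the eIF2a libraries and the other 3 were below all of them.

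**Figure D1:**
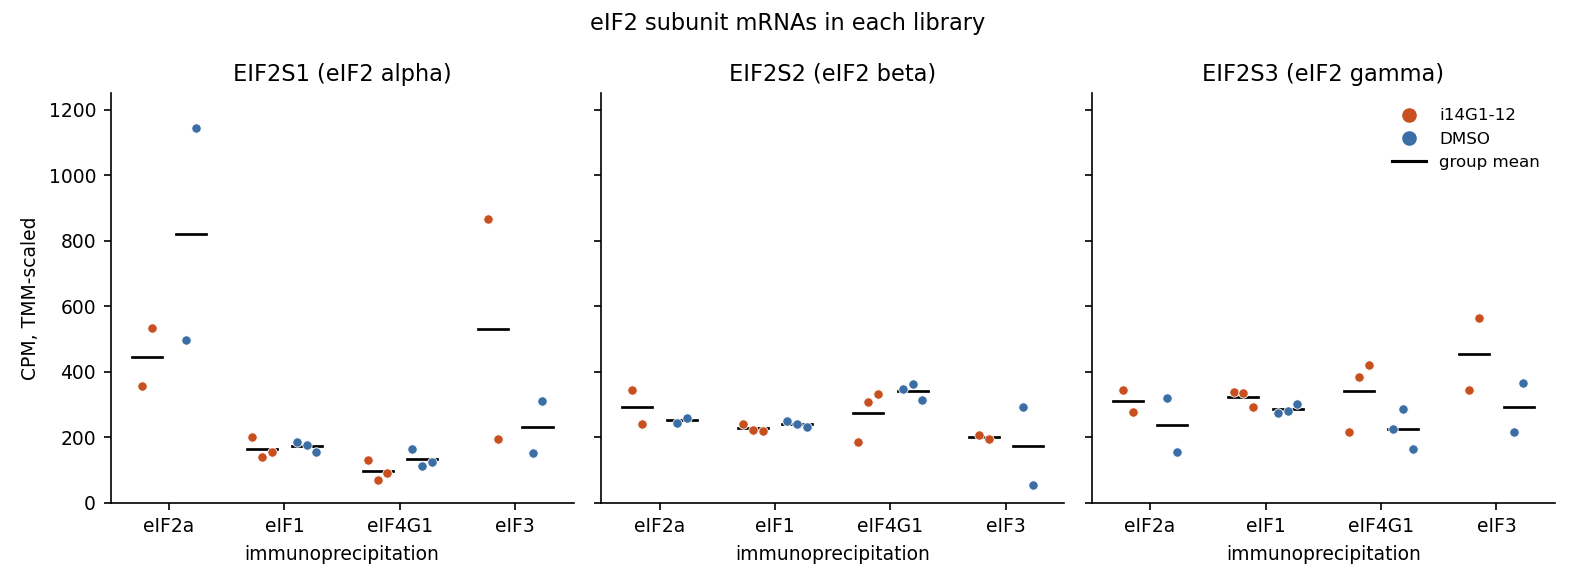
Level of the 3 eIF2 subunit genes in each of the 20 libraries, in TMM-scaled CPM on a linear axis, by immunoprecipitation, with i14G1-12 libraries left of DMSO libraries and a line at each group mean. EIF2S1 is high in the eIF2a libraries and in 1 eIF3 i14G1-12 library at 868 CPM, while the EIF2S2 and EIF2S3 levels of the eIF2a libraries lie within the range of the others, except EIF2S3 in eIF2a DMSO 2 (156 CPM from 3 counts), below the others' lowest of 163 CPM.

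In DMSO, EIF2S1 averaged 821 ± 458 CPM in eIF2a (SD, n = 2) and 173 ± 60.8 CPM in the other complexes (SD, n = 8). The contrast tested gave each of the other DMSO groups equal weight on the log2 scale, so it need not match these averages. The log2 difference was 2.08 (SE 0.39, edgeR quasi-likelihood test, adjusted p = 0.00455), in a fit to all 20 libraries in which the median over all genes was -0.13. The high EIF2S1 level in eIF2a DMSO was known before the contrast was chosen, so this p is not independent support. Of the 8 subunit genes, 1 was called in this comparison, where 0.053% of the 9426 genes tested were called. It was also the 1 member whose eIF2a libraries did not overlap the others, as 8.83% of all genes did not. In this contrast the log2 differences were -0.05 for EIF2S2, 0.10 for EIF2S3, 0.05 for EIF2B1, 0.11 for EIF2B2, 0.96 for EIF2B3, 0.39 for EIF2B4 and -0.49 for EIF2B5, and none of these 7 had an unadjusted p under 0.05. EIF2B1, EIF2B2 and EIF2B4 had 0 counts in eIF2a DMSO 2, so their estimates rest largely on eIF2a DMSO 1. Over the alternatives they went as low as -7.96, -7.76 and -7.08. The EIF2S1 call rested on both eIF2a DMSO libraries: the log2 difference was 2.69 without eIF2a DMSO 1 (edgeR adjusted p = 0.138) and 1.59 without eIF2a DMSO 2, the library of 10033 counts (edgeR adjusted p = 0.347). It was 1.72 without the 2 shallowest libraries (edgeR adjusted p = 0.161). The factor precipitated, the means of precipitating it and the tagged cells used differ between eIF2a and the pooled other complexes and cannot be told apart, although the HA tag is shared with eIF1.

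The i14G1-12 libraries are other libraries, so they give a second look at the same contrast. It is not a fully independent one: the spread was estimated over all 20 libraries, and the tests were chosen with earlier results known. In i14G1-12, EIF2S1 averaged 446 ± 126 CPM in eIF2a (SD, n = 2) and 231 ± 261 CPM in the other complexes (SD, n = 8). The log2 difference of 1.14 (SE 0.35) did not pass (edgeR adjusted p = 0.177). None of the 8 genes was called, against 0.0955% of all genes tested, and DESeq2 also called none of them. EIF2S1 alone had an unadjusted p under 0.05. The other log2 differences were 0.31 for EIF2S2, -0.26 for EIF2S3, 0.40 for EIF2B1, 0.30 for EIF2B2, 0.61 for EIF2B3, 0.62 for EIF2B4 and 0.76 for EIF2B5. The 1 member with separate libraries was EIF2B4, at 43.8 and 55.5 CPM in eIF2a and 20.7 to 42.0 CPM in the other complexes, where 8.99% of all genes had them. Without the eIF3 library at 868 CPM, the log2 difference of EIF2S1 was 1.64 and passed (edgeR adjusted p = 0.00730), while without eIF2a i14G1-12 2 it was 0.82 (edgeR adjusted p = 0.950). It passed in no other of the 26 alternatives run.

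HA-eIF2a and HA-eIF1 both carry the HA tag, so they were also compared with each other. The factor precipitated and the tagged cells used still differ between them and cannot be told apart. In i14G1-12, EIF2S1 averaged 446 ± 126 CPM in eIF2a (SD, n = 2) and 165 ± 31.7 CPM in eIF1 (SD, n = 3), a log2 difference of 1.45 (SE 0.42, edgeR adjusted p = 0.0404). In DMSO the averages were 821 ± 458 CPM in eIF2a (SD, n = 2) and 172 ± 16.0 CPM in eIF1 (SD, n = 3), a log2 difference of 2.06 (SE 0.45, edgeR adjusted p = 0.0195). The high eIF2a DMSO level was known before the comparison was chosen, so the DMSO p is not independent support. The i14G1-12 p came from the same fit to all libraries and the same choice of tests, so it is not fully independent either. EIF2S1 was the 1 member called in each, where 2.48% of all genes tested were called in i14G1-12 and 0.265% in DMSO. Libraries did not overlap for 3 members in i14G1-12 (EIF2S1 and EIF2B4 higher, EIF2B2 lower in eIF2a), beside 41.6% of all genes, and for EIF2S1 alone in DMSO, beside 33.5% of all genes. The other 7 genes had log2 differences from -0.63 for EIF2B2 to 0.76 for EIF2B4 in i14G1-12, with EIF2S2 at 0.36, EIF2S3 at -0.05, EIF2B1 at 0.70, EIF2B3 at 0.31 and EIF2B5 at 0.28. In DMSO they ran from -0.42 for EIF2B2 to 0.64 for EIF2B3, with EIF2S2 at 0.05, EIF2S3 at -0.02, EIF2B1 at 0.04, EIF2B4 at 0.11 and EIF2B5 at -0.41. With total counts in place of TMM the median over all genes moved from -0.03 to 0.41 in i14G1-12 and from -0.15 to 0.23 in DMSO, and EIF2S1 was still called in both. The i14G1-12 call was lost without any 1 of its 5 libraries (edgeR adjusted p up to 0.537). The DMSO call was lost without eIF1 DMSO a, eIF1 DMSO c or either eIF2a library (edgeR adjusted p up to 0.349).

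A measure that needs no scaling between libraries is the share of EIF2S1 in the counts of the 3 eIF2 genes of the same library. It was 34.1% and 50.8% in eIF2a i14G1-12 and 46.8% and 73.3% in eIF2a DMSO. The highest of these had 22 EIF2S1 counts of 30 and an exact 95% Clopper-Pearson interval of 54.1% to 87.7%, which covers counting error only. In eIF1 libraries the share ran from 20.1% to 25.7% in i14G1-12 and from 22.5% to 26.3% in DMSO, and in eIF4G1 libraries from 9.25% to 24.7% in i14G1-12 and from 14.95% to 22.4% in DMSO. In eIF3 it was 61.0% and 20.4% in i14G1-12, against 22.8% and 42.6% in DMSO. The 4 eIF2a libraries averaged 51.2% ± 16.3 (SD, n = 4) and the 16 others 24.5% ± 12.2 (SD, n = 16), a difference of 26.7 percentage points (two-sided exact permutation test over libraries, p = 0.00949). The high EIF2S1 level in eIF2a DMSO was known before the share tests were chosen. The p of the pooled test and of the DMSO test are therefore not independent support. The test also treats libraries of different immunoprecipitations as interchangeable. In i14G1-12 alone the averages were 42.4% in eIF2a and 24.4% in the others (exact permutation p = 0.222, and 0.0556 without eIF3 i14G1-12 1, the smallest that 2 against 7 libraries allow). That difference of 18.0 points was 9.74 points without eIF2a i14G1-12 2 (exact permutation p = 0.444) and 13.96 points as a share of all 8 genes (exact permutation p = 0.356). In DMSO alone the averages were 60.1% in eIF2a and 24.7% in the others (exact permutation p = 0.0444, the smallest that 2 against 8 libraries allow). The DMSO difference did not pass as a share of all 8 genes (exact permutation p = 0.0889) or with any 1 DMSO library left out, where fewer libraries raise the smallest possible p to at least 0.0556. It was 35.4 points with all DMSO libraries and 22.1 points without eIF2a DMSO 2. Permuting within each treatment gave p = 0.0128 by the same exact permutation test.

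**Figure D2:**
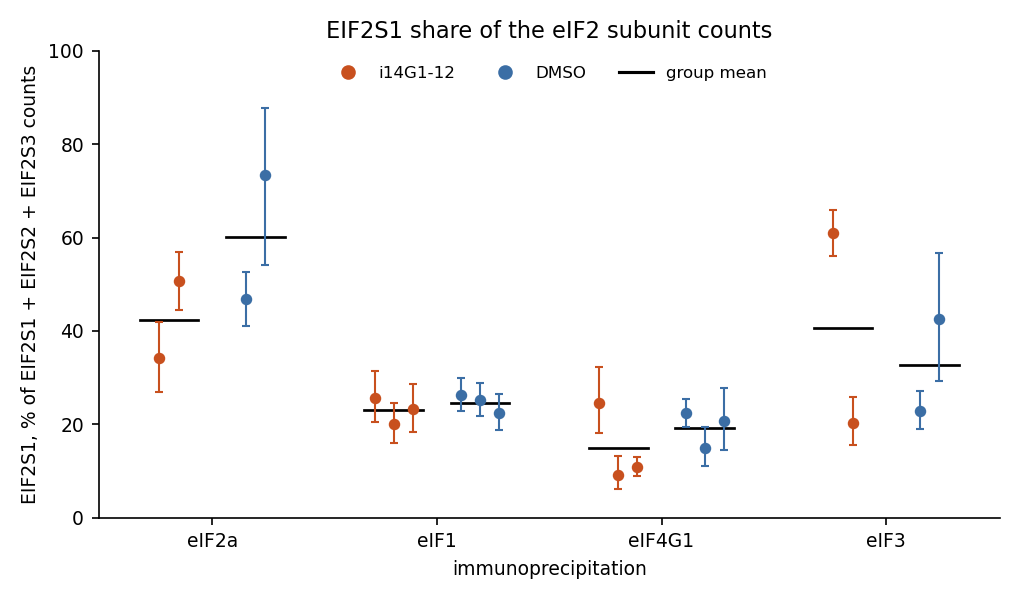
Share of EIF2S1 in the summed counts of EIF2S1, EIF2S2 and EIF2S3, in percent, for each library by immunoprecipitation, with i14G1-12 left of DMSO. Bars are exact 95% Clopper-Pearson intervals and lines are group means. The eIF2a libraries lie at 34.1% or more, the eIF1 and eIF4G1 libraries at 26.3% or less, and 1 eIF3 library of each treatment lies among the eIF2a values.

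The library eIF3 i14G1-12 1 stood out for EIF2S1, with 246 counts of 403 eIF2 counts. Its share of 61.0% (exact 95% interval 56.1% to 65.8%) and that of eIF3 i14G1-12 2 at 20.4% (15.6% to 25.9%) differed by more than counting error. Across the 9426 genes of the 20-library fit, this library was most alike to eIF4G1 i14G1-12 3 (Spearman's rho 0.847) and eIF3 DMSO 1 (0.835). Its rho was 0.803 with eIF2a i14G1-12 2, 0.798 with eIF2a DMSO 1 and 0.784 with eIF2a i14G1-12 1. It was 0.701 with eIF3 i14G1-12 2. With eIF2a DMSO 2, the library of 10033 counts, it was 0.469, and that library reached only 0.487 with eIF2a DMSO 1. The libraries compared differ in depth: eIF4G1 i14G1-12 3 held 1085854 counts and eIF3 DMSO 1 held 582437. By contrast, eIF2a i14G1-12 2 held 244508 counts and eIF3 i14G1-12 2 held 239495. Likeness and depth cannot be told apart in these values, so their order does not show which immunoprecipitation this library resembles. The EIF2S2 level of 208 CPM and EIF2S3 level of 346 CPM in eIF3 i14G1-12 1 were within the range of the other libraries.

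EIF2S2, the beta subunit, varied less between complexes. It was at 344 and 242 CPM in eIF2a i14G1-12 and at 245 and 260.2 CPM in eIF2a DMSO. The 6 eIF1 libraries lay between 219 and 250.4 CPM in both treatments. In eIF4G1 it was at 187, 308 and 331 CPM in i14G1-12 and at 349, 362 and 315 CPM in DMSO, so the 3 highest of its 20 values included 2 of the DMSO libraries of eIF4G1. In eIF3 it was at 208 and 195 CPM in i14G1-12 and at 292 and 54.1 CPM in DMSO, the last of these resting on 4 counts.

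EIF2S3, the gamma subunit, was at 344 and 277 CPM in eIF2a i14G1-12, against 320.3 and 156 CPM in eIF2a DMSO. In eIF1 it was at 339, 334 and 293 CPM in i14G1-12 and at 273, 279 and 303 CPM in DMSO. The eIF1 groups overlapped in 1 pair of libraries only. In eIF4G1 it was at 215, 383 and 422 CPM in i14G1-12 and at 225, 286 and 163 CPM in DMSO, and in eIF3 at 346 and 565 CPM in i14G1-12 and at 218 and 365 CPM in DMSO. Each pair of groups overlapped. The i14G1-12 mean was above the DMSO mean in eIF1, eIF4G1 and eIF3, and in eIF2a only with the 3 counts of eIF2a DMSO 2 included.

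EIF2S3 was also set against its beta partner within a library, a pair picked after the values were seen, so the shares are a description with no test. How often other pairs of genes separate was not computed, and single genes did so for 14.1% of those tested in eIF4G1 and 18% in eIF1. The EIF2S3 share of the EIF2S2 and EIF2S3 counts was 53.4%, 55.5% and 56.1% in eIF4G1 i14G1-12 and 39.2%, 44.1% and 34.1% in eIF4G1 DMSO, with no overlap. In eIF1 it was 58.4%, 60.1% and 57.2% in i14G1-12 and 52.2%, 53.6% and 56.7% in DMSO, also with no overlap, though the lowest i14G1-12 and the highest DMSO share lay within each other's exact 95% interval. The eIF2a shares were 50.0% and 53.4% in i14G1-12, against 56.7% and 37.5% in DMSO. For eIF3 they were 62.4% and 74.4% in i14G1-12, against 42.7% and 87.1% in DMSO. In eIF2a and eIF3 the DMSO libraries lay on both sides of the i14G1-12 libraries, and the outer value in each (37.5% in eIF2a and 87.1% in eIF3) came from the shallow library, with 8 and 31 counts of the pair.

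**Figure D3:**
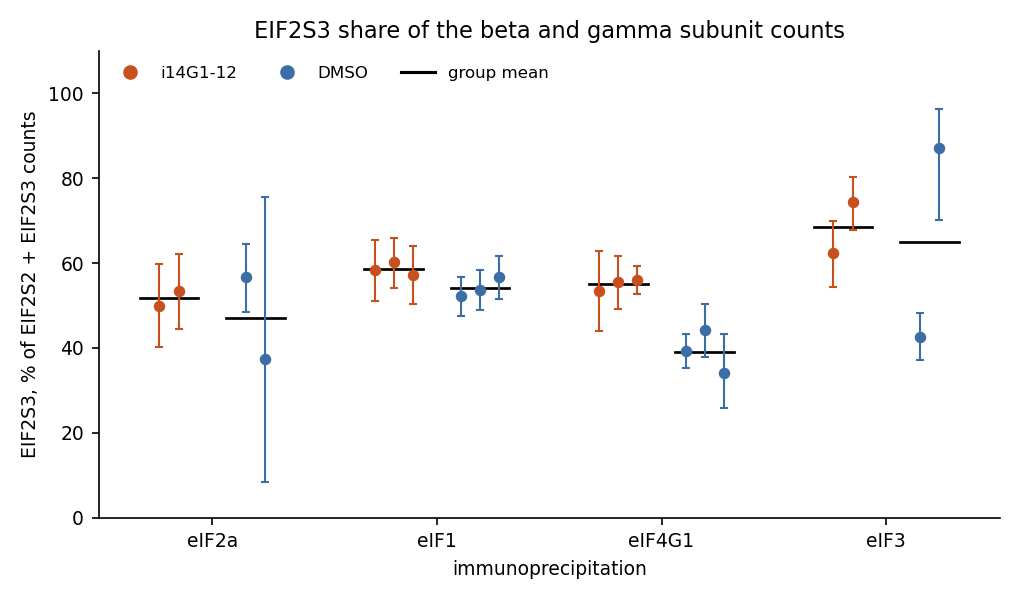
Share of EIF2S3 in the summed counts of EIF2S2 and EIF2S3, in percent, for each library by immunoprecipitation, with i14G1-12 left of DMSO. Bars are exact 95% Clopper-Pearson intervals and lines are group means. In eIF4G1 the i14G1-12 libraries lie at 53.4% to 56.1% and the DMSO libraries at 34.1% to 44.1%.

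The 5 eIF2B genes took from 6.25% to 31.6% of the counts of the 8 genes. Their levels summed to 282 and 277 CPM in eIF2a i14G1-12 and to 320.3 and 104 CPM in eIF2a DMSO, the last from 2 counts. The sums ran from 235 to 262 CPM in eIF1 i14G1-12, against 243 to 314 CPM in eIF1 DMSO, and from 193 to 246 CPM in eIF4G1 i14G1-12, against 183 to 302 CPM in eIF4G1 DMSO. In eIF3 they were 148 and 149 CPM in i14G1-12, against 241 and 122 CPM in DMSO. In every immunoprecipitation the i14G1-12 sums lay within or overlapped the DMSO sums.

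EIF2B2, the beta subunit of the regulatory core, was the eIF2B gene called, with TMM scaling, as differing in level between immunoprecipitations. It was at 124, 99.0 and 88.1 CPM in eIF1 i14G1-12 and at 79.7, 69.8 and 101.5 CPM in eIF1 DMSO. Outside eIF1 the highest value was 75.1 CPM, in eIF2a i14G1-12, and 5 of the 6 eIF1 libraries lay above it. The remaining values were 75.1 and 59.5 CPM in eIF2a i14G1-12, and 72.0 CPM and 0 counts in eIF2a DMSO. They were 72.8, 57.4 and 26.1 CPM in eIF4G1 i14G1-12 and 58.6, 43.0 and 23.3 CPM in eIF4G1 DMSO. In eIF3 they were 38.8 and 22.9 CPM in i14G1-12 and 54.4 and 40.5 CPM in DMSO. This order depended on the scaling. As a share of all counts, EIF2B2 was at 0.00788% in eIF2a i14G1-12 1. That was above eIF1 i14G1-12 a (0.00745%) and c (0.00735%) and eIF1 DMSO a (0.00603%) and b (0.00645%). It was below eIF1 i14G1-12 b (0.00849%) and eIF1 DMSO c (0.00893%).

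A test of whether the level differed between the 4 immunoprecipitations, over both treatments, called 2 of the 8 genes, where it called 15.2% of all genes tested. They were EIF2S1 (edgeR adjusted p = 1.90e-07, rank 45 of 9426 genes by p) and EIF2B2 (edgeR adjusted p = 0.0167, rank 875). The test includes eIF2a DMSO, whose high EIF2S1 level was known beforehand, so the EIF2S1 p is not independent support. The EIF2S1 call held in each of the 26 alternatives run (adjusted p up to 1.27e-05). EIF2B2 was not called with total counts in place of TMM (edgeR adjusted p = 0.166), by DESeq2 (adjusted p = 0.0720), without eIF1 i14G1-12 a (edgeR adjusted p = 0.0653) or without eIF1 DMSO c (edgeR adjusted p = 0.0829). EIF2S2 was called only without eIF3 DMSO 1 (edgeR adjusted p = 0.0205, against 0.323 with all libraries). The other adjusted p from edgeR were 0.751 for EIF2S3, 0.414 for EIF2B1, 0.216 for EIF2B3, 0.734 for EIF2B4 and 0.890 for EIF2B5.

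The level of the other 4 eIF2B genes was not called as differing between immunoprecipitations. EIF2B1, the alpha subunit, ran from 17.7 to 89.8 CPM in the libraries with counts and had 0 counts in eIF2a DMSO 2. The catalytic pair showed a similar range, from 17.3 to 90.0 CPM for EIF2B3, which had 0 counts in eIF3 DMSO 2, and from 15.6 to 59.0 CPM for EIF2B5. EIF2B4, the delta subunit, lay between 20.7 and 55.5 CPM in the libraries with counts and also had 0 counts in eIF2a DMSO 2. Both zeros of eIF2a DMSO 2, and that of EIF2B2, allow values above any level measured for these genes, so they show no absence.

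**Figure D4:**
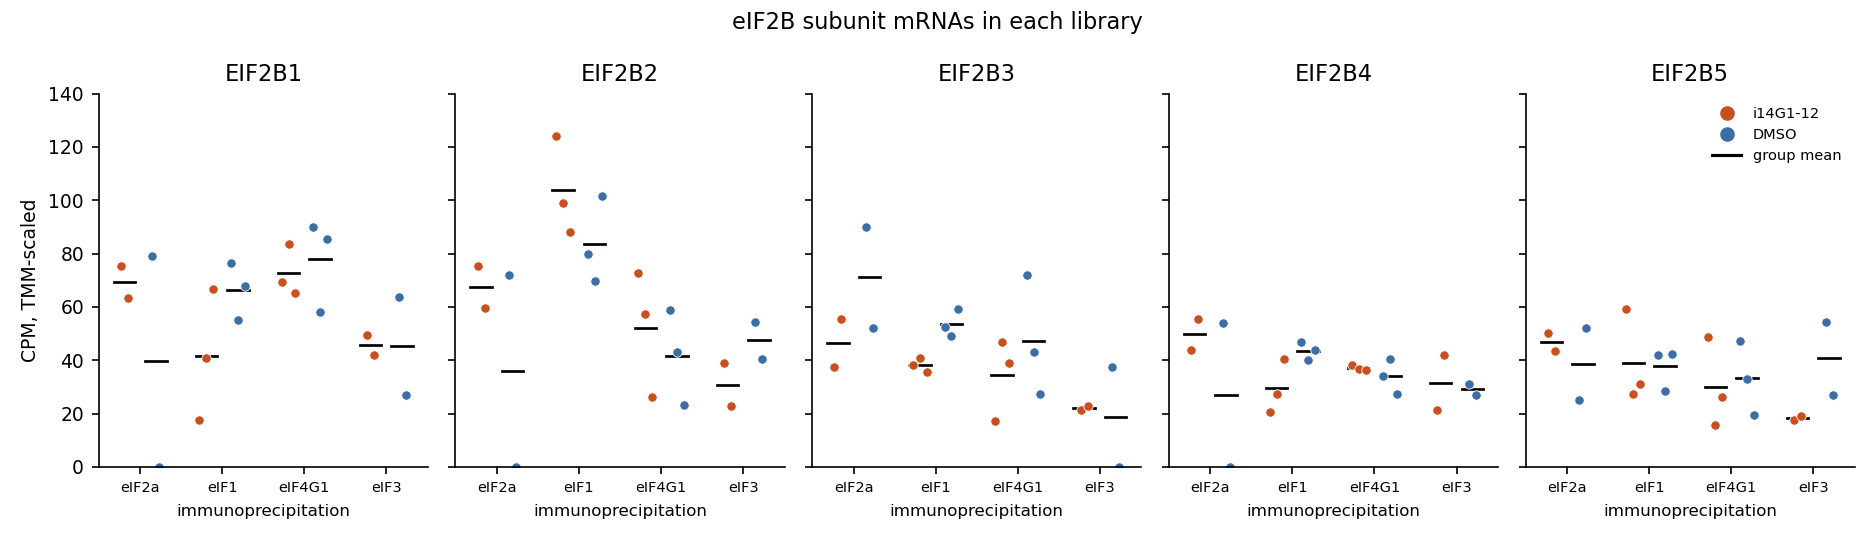
Level of the 5 eIF2B subunit genes in each of the 20 libraries, in TMM-scaled CPM on a linear axis, by immunoprecipitation, with i14G1-12 left of DMSO and a line at each group mean. Points at 0 are libraries with 0 counts, which allow up to 156 CPM in eIF2a DMSO 2 and 40.5 CPM in eIF3 DMSO 2. EIF2B2 runs from 69.8 to 124 CPM in the eIF1 libraries and reaches at most 75.1 CPM elsewhere.

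Between genes, levels were compared per kilobase of the counted sequence, although footprints of initiation complexes need not spread evenly over it. On that scale an eIF2 gene was the highest of the 8 in all 20 libraries, EIF2S2 in 12, EIF2S3 in 4 and EIF2S1 in 4. In eIF1 i14G1-12 the means were 93.2 ± 7.38 CPM per kb for EIF2S3, 89.0 ± 4.95 for EIF2S2 and 39.7 ± 7.64 for EIF2S1 (SD, n = 3 each), and those of the eIF2B genes lay between 15.2 and 24.1 CPM per kb. In eIF1 DMSO they were 82.5 ± 4.56 for EIF2S3, 94.3 ± 3.78 for EIF2S2 and 41.5 ± 3.85 for EIF2S1 (SD, n = 3 each), with eIF2B genes between 14.7 and 28.2 CPM per kb. EIF2S2 and EIF2S3 were thus within their spread of each other in i14G1-12, and EIF2S1 lay below both and above each eIF2B mean.

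The eIF2a libraries had another order per kilobase. EIF2S1 averaged 107 ± 30.3 CPM per kb in eIF2a i14G1-12, beside 115 ± 28.4 for EIF2S2 and 89.9 ± 13.7 for EIF2S3 (SD, n = 2 each), all within their spread. In eIF2a DMSO it was 198 ± 110.4 CPM per kb, beside 98.8 ± 4.28 for EIF2S2 and 68.9 ± 33.6 for EIF2S3 (SD, n = 2 each). In eIF4G1, EIF2S1 lay lower, at 23.5 ± 7.50 CPM per kb in i14G1-12 and 32.4 ± 6.56 in DMSO (SD, n = 3 each), within the spread of the EIF2B1 level of 30.3 ± 4.002 in i14G1-12 and 32.5 ± 7.15 in DMSO (SD, n = 3 each). In eIF3, EIF2S1 averaged 128 ± 114.6 CPM per kb in i14G1-12 and 55.6 ± 27.2 in DMSO (SD, n = 2 each). Among 9426 genes ranked per kilobase, EIF2S1 stood at percentile 92.0 in eIF2a i14G1-12 and 96.3 in eIF2a DMSO. It stood at 94.6 in eIF3 i14G1-12 and 87.2 in eIF3 DMSO, so a high rank was not particular to eIF2a. The percentiles were 78.3 in eIF1 i14G1-12, 79.2 in eIF1 DMSO, 67.8 in eIF4G1 i14G1-12 and 75.2 in eIF4G1 DMSO. EIF2S2 stood between percentiles 89.5 and 93.3 in all 8 groups.

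The effect of i14G1-12 was tested within each immunoprecipitation. No subunit gene was called in eIF1 complexes (8 of 8 tested, 0.456% of all genes called), eIF4G1 complexes (8 of 8, 0.347%), eIF2a complexes (8 of 8, 0% of 4719 genes, of which 87 had an unadjusted p under 0.05 and 0 were called by DESeq2) or eIF3 complexes (5 of 8, 0.0159%). By edgeR none of them had an unadjusted p under 0.05 in any of the 4, and DESeq2 called none. The EIF2B3, EIF2B4 and EIF2B5 counts in eIF3 were too low for the filter and were not tested. Median log2 fold changes of the tested members were 0.01 in eIF2a (0.06 over all genes), -0.10 in eIF1 (0.00), -0.18 in eIF4G1 (-0.01) and 0.06 in eIF3 (0.02).

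EIF2S1 had log2 fold changes of -0.63 (SE 0.39) in eIF2a, -0.10 (SE 0.23) in eIF1, -0.49 (SE 0.34) in eIF4G1 and 1.21 (SE 0.74) in eIF3. The eIF3 value became -0.21 without eIF3 i14G1-12 1 and 1.96 without eIF3 i14G1-12 2. The eIF2a value became -1.61 and passed (edgeR adjusted p = 0.0188) without eIF2a DMSO 1, a fit in which the library of 10033 counts was the only control and was taken to vary like the i14G1-12 libraries. It became -0.13 without that library instead (edgeR adjusted p = 0.995). EIF2S2 was at 0.20 in eIF2a, -0.11 in eIF1, -0.29 in eIF4G1 and 0.06 in eIF3. EIF2S3 had estimates of 0.03 (SE 0.36) in eIF2a, 0.15 (SE 0.21) in eIF1, 0.61 (SE 0.32) in eIF4G1 and 0.62 (SE 0.63) in eIF3, and the eIF2a one was below 0 in 4 of its 11 alternatives (-0.06 without eIF2a DMSO 2).

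Among the eIF2B genes no estimate passed either. EIF2B3 was at -0.84 (SE 0.54) in eIF2a, -0.50 (SE 0.36) in eIF1 and -0.48 (SE 0.50) in eIF4G1. In eIF1 its libraries did not overlap, at 38.4, 40.8 and 35.7 CPM in i14G1-12 and 52.4, 49.2 and 59.2 CPM in DMSO. It was the 1 member of 8 with separate groups there, where 18% of all genes tested had them, while no member had them in eIF4G1 (14.1%) or eIF2a (29.2%). In eIF3, EIF2B2 was the 1 member of 5 with separate groups (25.8% of all genes tested), at a log2 fold change of -0.72 (SE 0.73). In eIF1, EIF2B1 was at -0.65 (SE 0.38) and EIF2B4 at -0.57 (SE 0.40), beside EIF2B2 at 0.28 and EIF2B5 at -0.01. In eIF4G1, EIF2B1 was at -0.11, EIF2B2 at 0.18, EIF2B4 at 0.12 and EIF2B5 at -0.26. In eIF2a, EIF2B1 was at -0.08, EIF2B2 at -0.003, EIF2B4 at 0.03 and EIF2B5 at 0.73, and in eIF3, EIF2B1 was at -0.22. The SEs of the eIF2B genes in the 4 immunoprecipitations ran from 0.27 to 0.85 on the log2 scale.

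**Figure D5:**
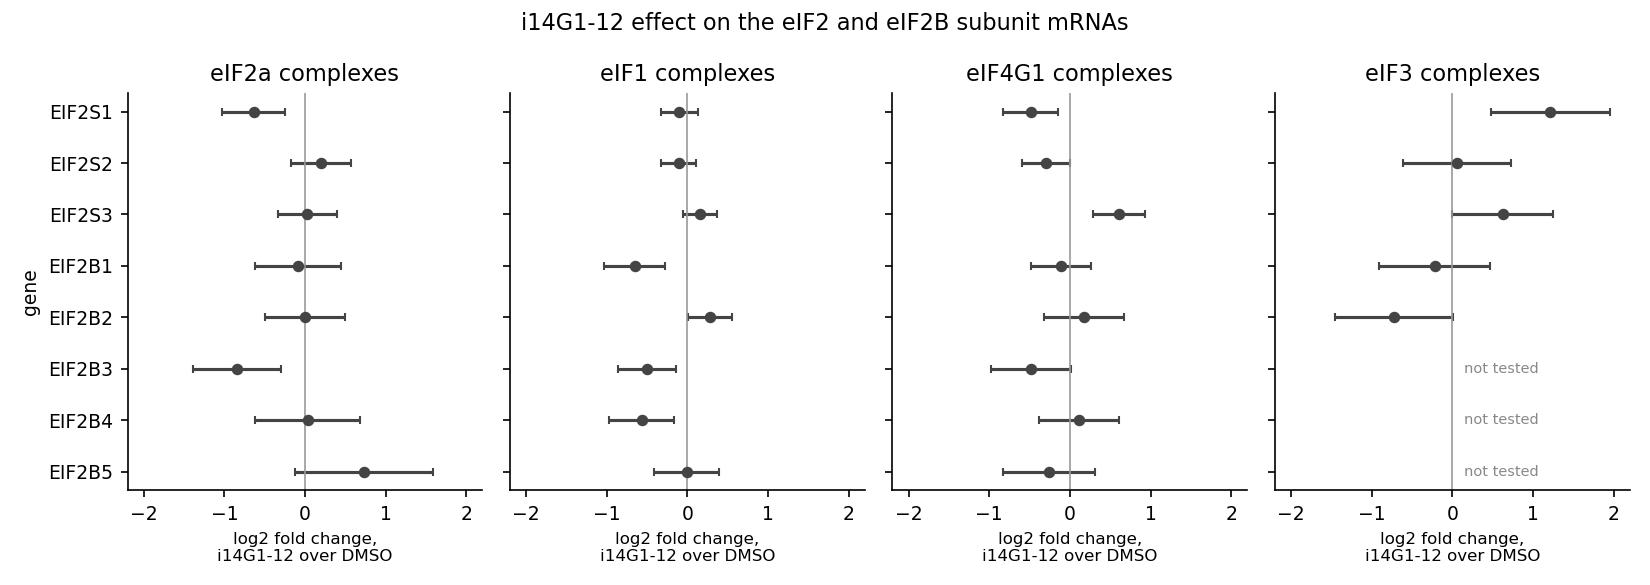
Log2 fold change of i14G1-12 over DMSO for the 8 subunit genes in each immunoprecipitation, from edgeR fits to that immunoprecipitation's libraries. Points are estimates and bars are 1 SE on either side. EIF2S1 runs from -0.63 in eIF2a to 1.21 in eIF3, EIF2S3 from 0.03 in eIF2a to 0.62 in eIF3, and no gene passed the adjusted threshold.

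Averaged over the 4 immunoprecipitations in 1 fit to all libraries, EIF2S3 had a log2 fold change of 0.41 (SE 0.20), the only member with an unadjusted p under 0.05, which did not pass (edgeR adjusted p = 0.441, and 0.150 to 0.768 over the alternatives). EIF2B3 was at -0.54 (SE 0.29, edgeR adjusted p = 0.537), and the others were EIF2S1 at 0.02, EIF2S2 at -0.04, EIF2B1 at -0.25, EIF2B2 at -0.04, EIF2B4 at -0.07 and EIF2B5 at -0.22. None of the 8 was called by edgeR or DESeq2, where edgeR called 0.541% of all genes. The test of whether the treatment effect differed between immunoprecipitations called none of the 8 either by edgeR or by DESeq2 (0.0212% of all genes by edgeR). EIF2S1 alone had an unadjusted p under 0.05 there (edgeR adjusted p = 1.000, as for EIF2S2, EIF2S3 and EIF2B1 to EIF2B5). Its effects in that fit were -0.68 (SE 0.49) in eIF2a, -0.07 (SE 0.37) in eIF1, -0.50 (SE 0.39) in eIF4G1 and 1.35 (SE 0.49) in eIF3, the last with eIF3 i14G1-12 1 among its libraries.

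Across the 20 libraries Pearson's r of log2 CPM with EIF2S1 lay between -0.54 for EIF2B1 and 0.16 for EIF2B5 among the other subunit genes. Without eIF2a DMSO 2, where 3 eIF2B genes had 0 counts, and eIF3 i14G1-12 1, it lay between -0.32 for EIF2S2 and 0.39 for EIF2B4. Among 7956 other genes with a mean of at least 20 CPM, those most like EIF2S1 were ENSG00000166337 (r = 0.83, Spearman's rho 0.61) and ENSG00000157734 (r = 0.79, rho 0.72). Without the same pair of libraries, where EIF2S1 was farthest from its median, these r were 0.66 and 0.60. The genes most like the mean of the 5 eIF2B genes were ENSG00000198730 (r = 0.94, rho 0.82) and ENSG00000134697 (r = 0.93, rho 0.79), and without the 2 shallowest libraries r was 0.75 and 0.69. The libraries differ in depth and immunoprecipitation, and the labels give no batch, so these values describe likeness over these 20 libraries and no more.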

How the data were processed

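Per the file headers, the deposited values are whole read counts for each gene, in 1 table per immunoprecipitation (4 in all), and they were used unchanged. The submitters' processing notes name the build hg38 and the tools featureCounts, HISAT2, Bowtie, Trimmomatic and cutadapt. The sources used here give no strand setting, filter or handling of reads that fit several genes. The Length column (nt, other unit, per the file headers) gave the counted sequence per gene. Columns were matched to samples by name. Numbers in the eIF1 column names differ from the replicate numbers of the labels, so these columns were assigned by group and are called a, b and c.

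Treatment effects were fitted on each immunoprecipitation's own libraries, and all other comparisons on all 20 libraries in 8 groups, with edgeR 4.0.16 (filterByExpr at a minimum count of 10, TMM, glmQLFit, glmQLFTest) in R 4.3.3. P-values were adjusted by Benjamini-Hochberg over all genes tested, with a threshold of 0.05. SEs were taken from the log2 fold change divided by the square root of its F statistic. Printed CPM use TMM factors over all 20 libraries. The EIF2S1 share was tested by exact enumeration in Python 3.11.15. Alternatives were DESeq2 1.42.0 (size factors, test), total counts, no filter, a minimum count of 30, 1 fit to all libraries, the replicate block and leaving out each library. Leaving out the 2 shallowest libraries and permuting within treatment were added after the data were seen. The fits were tested on simulated counts drawn from a mean profile shared by all libraries. That simulation holds no differences between immunoprecipitations beyond those planted and no outlying library, so it does not bear on calls that rest on such libraries. No library was taken as a duplicate, since chi-square per degree of freedom between replicates was 1.43 to 11.2. The members, lists and tests were chosen with earlier results of these data known, among them the high EIF2S1 level in eIF2a DMSO. All 8 members are named in each comparison, with the 2 genes most like EIF2S1 and the 2 most like the eIF2B mean. The members matched the RefSeq table by symbol, while 0 of 19029 IDs matched it by Ensembl ID. A list of other genes of the eIF2 cycle and the cell line's markers were therefore not analysed here, and the cell line was not checked against markers.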

Additional observations from a re-analysis of the deposited data

How the results depend on the processing

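Over the 8 genes and the alternatives run, 1681 values kept their side of the threshold. Where a gene was not called and the comparison had a fold change, these also stayed within 1 SE. For the F tests of level and of interaction only the call was compared. Another 39 values of genes not called moved by more than 1 SE, 17 calls were lost, 3 values passed and no call reversed. Beyond the smaller number of libraries in some alternatives, the cause was not tested. The number of members called for a level that differed between immunoprecipitations was 2, became 1 with total counts and 1 by DESeq2, and ran from 1 to 3 leaving out each library. For eIF2a against the other complexes in DMSO it was 1, became 0 without the 2 shallowest libraries and ran from 0 to 1 leaving out each library. The same values, 1, 0 and 0 to 1, held for HA-eIF2a against HA-eIF1 in DMSO. Leaving out each library also gave 0 to 1 for HA-eIF2a against HA-eIF1 in i14G1-12 (1 with all), for eIF2a against the others in i14G1-12 (0 with all) and for treatment in eIF2a complexes (0 with all). The difference in EIF2S1 share stayed between 19.4 and 32.4 percentage points leaving out each library (exact permutation p up to 0.0475). Over all genes, the number called and its range over the alternatives was 38 (2 to 174) for treatment in eIF1, 25 (4 to 91) in eIF4G1, 0 (0 to 13) in eIF2a and 1 (0 to 38) in eIF3, 51 (14 to 143) for the average and 2 (1 to 5) for the interaction. It was 5 (0 to 8) for eIF2a against the others in DMSO and 9 (0 to 132) in i14G1-12, 25 (1 to 48) and 234 (1 to 432) for HA-eIF2a against HA-eIF1 in DMSO and i14G1-12, and 1436 (871 to 1975) for level. With the replicate block, 0 members were called in eIF4G1, eIF2a and eIF3, while the count over all genes in eIF3 was 38. Libraries of the same number were not taken as paired. Their deviations from group means correlated at 0.0053, -0.0898 and -0.136 in eIF4G1 and -0.0045 in eIF2a. In eIF3 they correlated at 0.408, so pairing is not settled there. The eIF2a and eIF3 values rest on only 2 numbers. No paired analysis was possible for eIF1 because its columns carry no replicate number. Depth limits the eIF2B genes most, with at most 2 counts in all 5 together in eIF2a DMSO 2.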
